A study of Apis mellifera with 12 samples.

Results

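The cells described here are queen brain cells rich in *IRP30* (LOC408807), an immune gene. They were chosen by 1 rule, applied to both single-cell libraries of queen brains: a barcode with 200 to 5000 genes, at least 500 UMIs and under 15% of UMIs from features marked as mitochondrial was a member if it held 10 or more UMIs of *IRP30*. Each UMI is a barcode that stands for 1 RNA molecule caught from the cell. The rule found 251 cells among 38028 queen cells, and 121460 cells passed the same limits in all 6 single-cell libraries. They were compared with the 1057 other queen cells that held at least 3 UMIs of *repo* (LOC410151), the transcription factor that marks glia in *Drosophila*, and these are called repo cells below.

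The series profiled adult *Apis mellifera* brains of 3 groups of females. The queens were mated queens, reared artificially and inseminated, and the workers were nurses and foragers, told apart by what they did at collection (brood care or pollen transport). Each group gave 2 single-cell libraries, each from a pool of 4 to 5 whole brains dissociated with papain, and 2 bulk libraries, each from 5 pooled brains. No transgene, mutation or drug was involved, and the ages of the bees were not given in the sources used here. A library is thus a pool of brains, so its value is 1 replicate whatever the number of its cells.

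*IRP30* encodes a secreted protein with leucine-rich repeats that honeybees make in response to bacteria. Bees answer infection mainly by making antimicrobial peptides under the control of the Toll and Imd pathways: hymenoptaecin, the proline-rich abaecin and apidaecin, and the defensins. The fat body and hemocytes are the best known sources of these peptides. In insect brains, glia wrap and feed neurons, seal the brain from the hemolymph and clear debris.

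*IRP30* is annotated on chromosome 4 of the Amel_HAv3.1 assembly, from 8204758 to 8206134. The first queen library gave 34 IRP30-rich cells of 20613 (0.165%, 95% Wilson interval 0.118 to 0.230%) and the second 217 of 17415 (1.25%, 1.09 to 1.42%). These intervals cover counting error only. In the first library the cells held between 12 and 590 *IRP30* UMIs, with a median of 104. In the second they held between 10 and 2408, with a median of 65. *IRP30* made up a median of 1.52% and 1.07% of all UMIs of such a cell, and 12.6% in the highest cell. The 251 cells were few, but they held 36.8% of all *IRP30* UMIs of the first queen library and 65.7% of those of the second. All of these values follow from the rule and are descriptions.

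The worker single-cell libraries showed what the same rule gives where few *IRP30* UMIs were caught. Bulk brains of foragers did hold *IRP30* RNA, as given below. No cell of either nurse library or of the first forager library reached 10 UMIs, and 1 of 22019 cells of the second forager library did, with 13. Between 0.104% and 0.772% of worker cells held any *IRP30* UMI, against 30.2% and 73.2% of queen cells. The lower end of the rule was therefore not an empty range in queens. In the second queen library 83 cells had 8 or 9 UMIs and 25 had 10 or 11, whereas the first had 7 and 0.

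**Figure D1:**
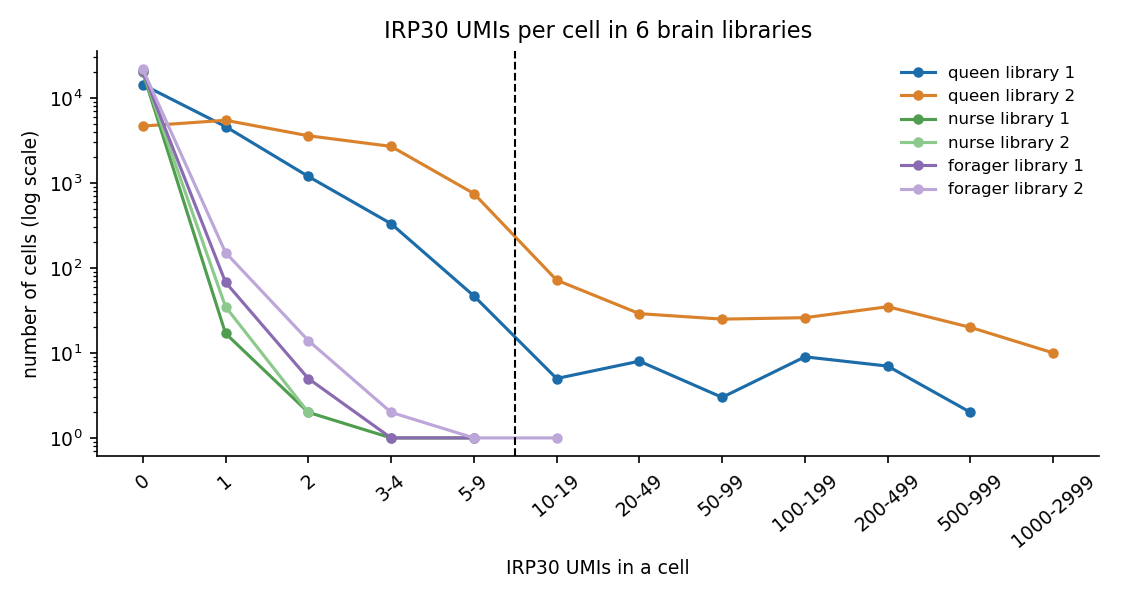
Number of cells (y axis, log scale) by the *IRP30* UMIs of the cell (x axis, in bins) in each of the 6 single-cell libraries, 1 line per library, with the limit of 10 UMIs dashed; bins with no cell are left out. Both queen libraries have a tail of cells above 100 UMIs, up to 590 and 2408, and no worker cell lies above 13.

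The IRP30-rich cells were deep, with a median of 12848.5 and 8659 UMIs, against 5275 and 4314 in the repo cells and 5733.5 and 5970.5 in all other queen cells. Their median share of UMIs from features marked as mitochondrial was 10.95% and 9.03%, below the limit of 15%. Of the barcodes with 10 or more *IRP30* UMIs that passed the limits on genes and UMIs, 88 of 122 (72.1%) in the first library and 238 of 455 (52.3%) in the second were removed by the 15% limit, compared with 13.5% and 12.1% of all barcodes and 41.7% and 31.4% of repo cells. The removed barcodes held 4186 and 5397 CPM (UMIs of a gene scaled to the same total in every library and cell group) of *hymenoptaecin*, and 84.1% and 61.8% of them had 3 or more *repo* UMIs. Of the 450 features that carry the mitochondrial prefix in the files, 13 lie on the mitochondrial genome. With these 13 alone in the limit, 51 and 274 cells met the rule in place of 34 and 217. The queen libraries shared 93 cell barcodes, 0.451% of the cells of the first.

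The IRP30-rich cells were not of 1 kind. In the first queen library 31 of 34 had 3 or more *repo* UMIs and the other 3 had 1 or 2. In the second, 108 had 3 or more, 53 had 1 or 2 and 56 had none. The cells with 3 or more *repo* UMIs held 12337 and 28892 CPM of *IRP30*, 963 and 763 CPM of the neuronal RNA-binding gene *elav*, and 4708 and 4995 CPM of the trehalose transporter gene *Tret1*. The 109 cells of the second library with fewer *repo* UMIs held 5303 CPM of *IRP30*, 2960 CPM of *elav* and 483 CPM of *Tret1*. For scale, all other queen cells, neurons included, held 3380 and 3271 CPM of *elav* and 120 and 54.3 CPM of *Tret1*.

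The split is given here by the number of *IRP30* UMIs, as a description, since raw counts of both genes rise with the depth of a cell. In the second library, 4 of the 72 cells with 10 to 19 UMIs had 3 or more *repo* UMIs (5.56%), 10 of 29 with 20 to 49 UMIs (34.5%) and 94 of 116 with 50 or more (81.0%). The median depths of these 3 ranges were 5612, 3437 and 13516 UMIs. In the first library the shares were 4 of 5, 6 of 8 and 21 of 21, with median depths of 15637, 7695.5 and 13986 UMIs. Cells just below the limit, with 8 or 9 UMIs, had 3 or more *repo* UMIs in 3 of 7 and 6 of 83 cases. The cells with 10 to 19 UMIs in the second library held 256 CPM of *hymenoptaecin* and 3169 CPM of *elav*, near the 177 and 3207 CPM of those with 8 or 9. The second library also held 188 CPM of *IRP30* in all other cells, against 52.0 CPM in the first. The part of free RNA in the low end of the range was not tested.

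Clustering the 251 cells without *IRP30* and *repo* gave 5 groups. Group 1 (77 cells, 13 and 64 in the 2 libraries) was the richest in *IRP30*, with a median of 387 UMIs, and 74 of its cells had 3 or more *repo* UMIs. It held 6129 CPM of *Tret1*, 4712 CPM of the iron-binding transferrin gene *Tsf1*, 1563 CPM of the peptidoglycan recognition gene *Pgrp-s2* and 302 CPM of *elav*. Both ensheathing glia markers, *Tsf1* and *Idgf4*, were enriched in it, and *Tsf1* was among its first 10 genes. So were 2 of 3 astrocyte markers and 1 of 2 surface glia markers enriched, and neither cortex glia marker was. The lists of glial subtypes hold only 2 or 3 genes each, too few to give a name, so the group carries none. Group 4 (22 cells) had the deepest cells, with a median of 19538.5 UMIs, and every one had 3 or more *repo* UMIs.

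Group 3 (35 cells) was Kenyon cell-like: 4 of 5 markers of these mushroom body neurons were enriched, with 9526 CPM of *PLCe*, and the median was 20 *IRP30* UMIs. Group 2 (39 cells) was neuron-like, with 6 of 7 neuronal markers enriched, 3252 CPM of *elav* and a median of 16 *IRP30* UMIs. Group 0 (78 cells) was shallow, with a median of 2658.5 UMIs, and 5 of 6 fat body markers were enriched in it, 3 of them among its first 10 genes. In the second library 1 cell held 260 of the 264 UMIs of *Vg*, 27 of the 29 of *apolipophorins* and all 10 of *Hex70a* in this group, and another held 890 of the 1004 of *abaecin*. The group is therefore left unnamed. All 5 groups held cells of both libraries, but groups 2 and 3 had only 5 and 2 cells of the first. A caller trained on simulated doublets marked 11 of the 34 and 49 of the 217 IRP30-rich cells, and 191 remained without them. It marked 170 of the 769 and 58 of the 288 repo cells, and 11.3% and 7.81% of all cells of these libraries.

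**Figure D2:**
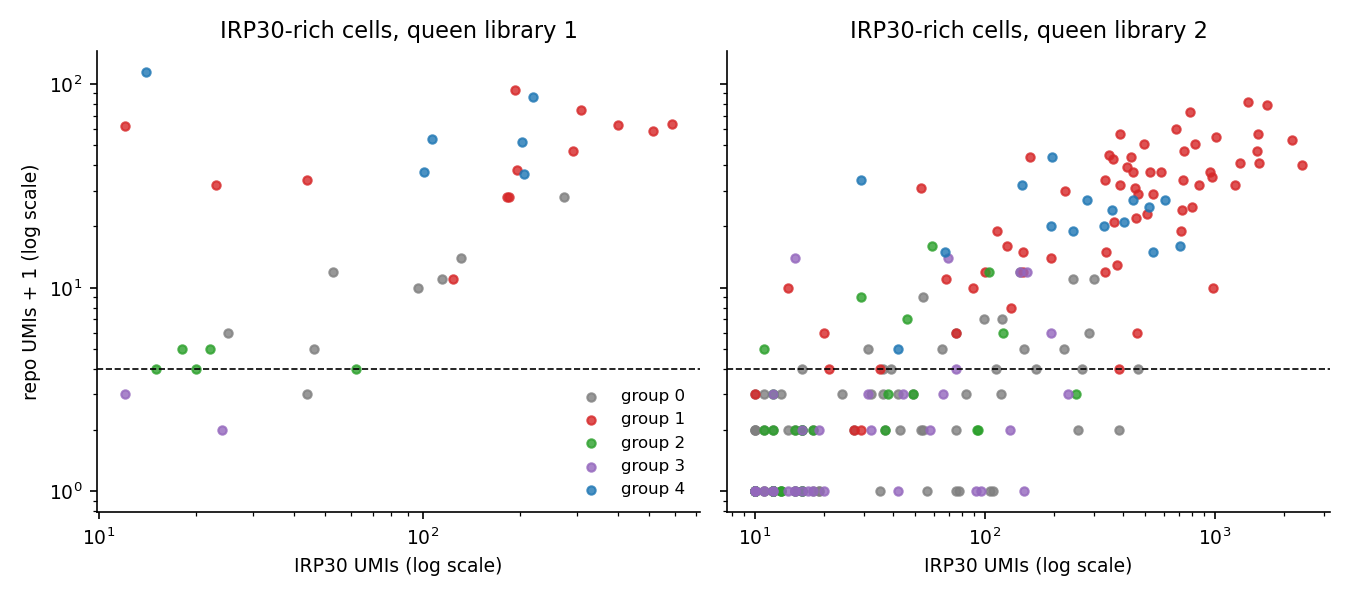
*IRP30* UMIs (x axis, log scale) and *repo* UMIs plus 1 (y axis, log scale) of each IRP30-rich cell in the first (left) and second (right) queen library, coloured by group; the dashed line marks 3 *repo* UMIs. Cells above 500 *IRP30* UMIs had *repo*, and the cells of groups 2 and 3 gather at low *IRP30* and low *repo*.

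The antimicrobial peptide genes were far higher in the IRP30-rich cells than in repo cells. All 4 measured genes of the list rose, by log2 fold changes of 2.92 to 7.74, with a median of 7.41 against a median of -0.04 over all genes. The fifth, *Def2*, had no UMI in any of the 251 cells. By counting error alone, with the cells of both libraries pooled, this allows a share of cells with a UMI of up to 1.20%. *Def2* stood at 0.17 and 0.08 CPM in all other queen cells, so nothing is read from its absence. The test was edgeR's quasi-likelihood F test on UMIs summed per library and cell group, with Benjamini-Hochberg adjustment. Over all genes, 84 of 10066 (0.834%) were higher in the IRP30-rich cells and 105 (1.04%) were lower (1.88% in both directions), at an adjusted p under 0.01 and a log2 fold change over 0.5 in size. With library totals in place of TMM scaling, which moved the median of all genes to -0.20, the split was 69 higher and 164 lower. That *hymenoptaecin*, *Apid1*, *abaecin* and *Def1* go with *IRP30* in these libraries was known when the cells were chosen, so the rise of none of the 4 is independent support.

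*Hymenoptaecin* (LOC406142, chromosome 6, 2367078 to 2368717) stood at 7903 and 5666 CPM in the IRP30-rich cells of the first and second queen library. It stood at 25 and 55.2 CPM in repo cells and at 21.2 and 49.6 CPM in all other cells. The IRP30-rich sums were 316-fold and 103-fold those of the repo cells of their library (log2 fold change 7.74 ± 0.57 SE, adjusted p = 8.43e-05). *Abaecin* (LOC406144, chromosome 10, 12267100 to 12267965) stood at 979 and 706 CPM, against 3.79 and 7.69 CPM in repo cells (7.49 ± 0.48, adjusted p = 5.55e-05). *Apid1*, which encodes apidaecin (chromosome 16, 4518604 to 4520315), stood at 872 and 1625 CPM, against 4.83 and 14.02 CPM (7.33 ± 0.18, adjusted p = 3.12e-08). For these 3 genes the repo cells stood near all other cells of their library, with 3.49 and 8.65 CPM of *abaecin* and 5.24 and 12.1 CPM of *Apid1* in the latter.

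*Def1* (chromosome 6, 8673495 to 8675023), the gene of the defensin found in royal jelly and hemolymph, differed in this respect. It stood at 1763 and 1019 CPM in the IRP30-rich cells, at 176 and 221 CPM in repo cells and at 29.4 and 23.5 CPM in all other cells. The rise over repo cells was smaller than for the other peptides (log2 fold change 2.92 ± 0.25 SE, adjusted p = 0.000251), and the repo cells lay above the other cells in both libraries. Among cells under the limit of *IRP30*, *hymenoptaecin* had nearly 1 ratio to *IRP30* in repo and in other cells, with 38.4 and 40.8 UMIs per 100 of *IRP30* in the first library and 25.5 and 26.3 in the second. For *Def1* these ratios were 270 and 56.5 in the first library and 102 and 12.5 in the second.

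**Figure D3:**
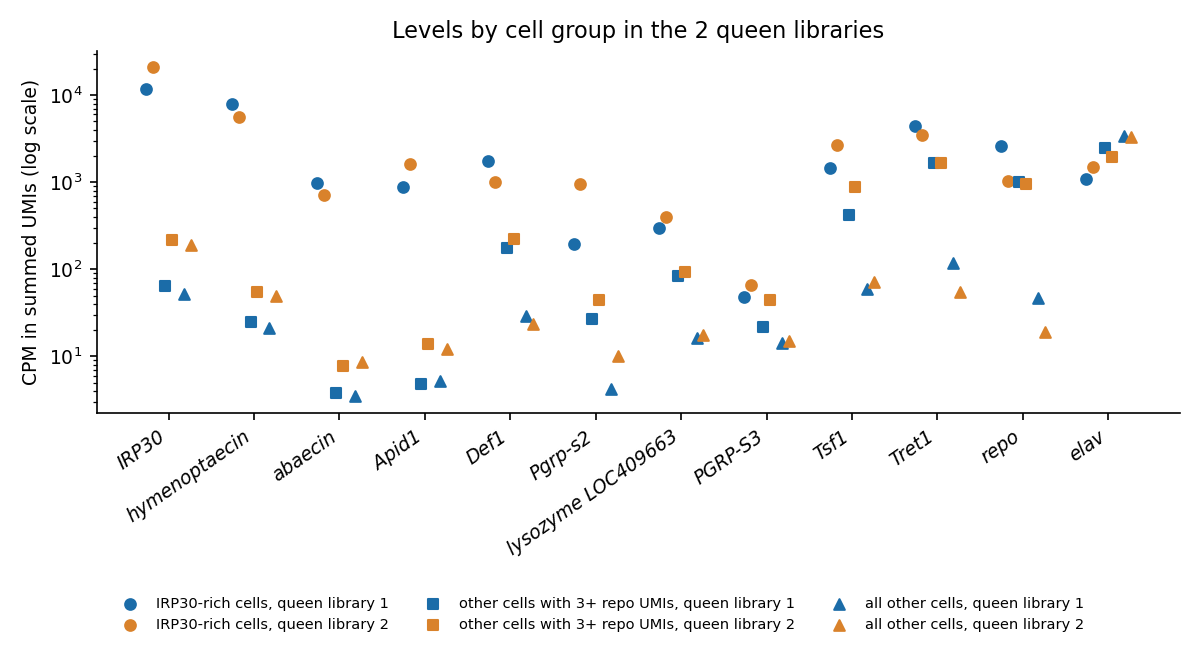
Level of immune and marker genes in summed UMIs (y axis, CPM, log scale) in IRP30-rich cells (circles), other cells with 3 or more *repo* UMIs (squares) and all other cells (triangles) of the first (blue) and second (orange) queen library, 1 point per library and cell group. *Hymenoptaecin*, *abaecin* and *Apid1* are as low in repo cells as in all other cells, and *Def1*, *Pgrp-s2*, *Tsf1* and *Tret1* take a middle level in repo cells.

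The peptides were spread unevenly over the cells. *Hymenoptaecin* ranged from 0 to 702 UMIs in the first library, with a median of 20, and from 0 to 3513 in the second, with a median of 2. The richest cell alone held 21.2% and 26% of the *hymenoptaecin* UMIs of the IRP30-rich cells, and 41.2% and 52.9% of those of *abaecin* lay in 1 cell. Without the top cell of each peptide, the 4 log2 fold changes were between 2.61 and 7.06 and all passed. All 4 peptides were found together in 11 of 34 and 40 of 217 cells, and none of them in 1 and 21 cells.

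After each cell was thinned to 2000 UMIs, 88.2% and 71.5% of the IRP30-rich cells held at least 1 UMI of any of the 4 peptides, against 24.7% and 35.6% of repo cells and 15.3% and 21.4% of all other cells. Unthinned, these shares were 97.1% and 90.3%, 43.4% and 55.9%, and 33.6% and 47.4%. Thinning left out 24 shallower IRP30-rich cells of the second library and none of the first. All other cells give the background of such shares. *Hymenoptaecin* was found in 7.08% and 17.4% of thinned repo cells and in 6.13% and 12.7% of thinned other cells.

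Of the 4 genes for recognition and killing of microbes, 2 rose. *Pgrp-s2* stood at 196 and 960 CPM in the IRP30-rich cells, against 26.9 and 43.9 CPM in repo cells (log2 fold change 3.94 ± 0.48 SE, adjusted p = 0.00211). The lysozyme gene LOC409663, for an enzyme that cuts bacterial cell walls, stood at 299 and 398 CPM, against 84.7 and 92.3 CPM (2.15 ± 0.29, adjusted p = 0.00351). The other peptidoglycan recognition gene, *PGRP-S3*, and the lysozyme gene LOC724899 had log2 fold changes of 1.03 (adjusted p = 0.0382) and 1.37 (adjusted p = 0.17) and did not pass.

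Of the genes that carry the immune signal, 0 of 5 passed, as a share of 1.88% over all genes would give for a list of this size, so nothing is read from this count. The Rel protein gene *dorsal* had a log2 fold change of -0.18, its inhibitor *cact1* -0.57, *Imd* 0.67, and the Toll family genes *18-w* and LOC410229 -0.73 and -0.72. *Imd* was the nearest to the threshold, with 43.0 and 45.3 CPM against 29.0 and 32.6 CPM in repo cells (adjusted p = 0.0402). Neither melanization gene passed, with 1.52 for the serpin gene LOC413749 (adjusted p = 0.0504) and -0.45 for *PPO*. The 2 secretory pathway genes and the 5 heat shock genes held no call either. Of the 13 mitochondrial genes none passed, with a list median of 0.54. The limit of 15%, which removed a larger share of IRP30-rich barcodes than of repo cells, caps these values. Their summed level was 81260 and 64323 CPM in the IRP30-rich cells against 54058 and 51621 CPM in repo cells.

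Outside the immune lists, the uncharacterised gene LOC724644 stood at 20285 and 11029 CPM in the IRP30-rich cells, against 2020 and 1433 CPM in repo cells and 186 and 81.0 CPM in all other cells (log2 fold change 3.28 ± 0.54 SE, adjusted p = 0.0077). *Hbg3*, for the alpha-glucosidase known from the hypopharyngeal gland, stood at 1111 and 610 CPM against 57.1 and 117 CPM (3.44 ± 0.54, adjusted p = 0.00685). It was found in 11 of 34 and 70 of 217 cells, and 1 cell held 278 of the 465 UMIs in the first library and 358 of 1455 in the second, without which the levels were 471 and 464 CPM. The call was lost among cells with 20 or more *IRP30* UMIs (2.05, adjusted p = 0.0757) and with 50 or more (2.68, adjusted p = 0.0308). The gland's major royal jelly genes *Mrjp1* to *Mrjp5* had no UMI in any IRP30-rich cell. They were at or under 0.14 CPM in all other cells of both queen libraries, so this absence is not particular to the IRP30-rich cells. LOC412540, annotated as a carcinine transporter, stood at 377 and 509 CPM against 76.1 and 109 CPM (2.45 ± 0.28, adjusted p = 0.00131). LOC551597, annotated as a cysteine-rich venom protein, stood at 709 and 1645 CPM against 152 and 250 CPM (2.66 ± 0.19, adjusted p = 6.98e-05).

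*Cryl1*, a crystallin-like dehydrogenase gene, also rose (log2 fold change 2.41). Of the remaining 5, LOC100578156 stood at 2190 and 632 CPM in the IRP30-rich cells against 81.7 and 99.1 CPM in repo cells (4.0 ± 0.46, adjusted p = 0.00148). LOC409367, LOC102654968, LOC100576592 and LOC552797 rose by 3.02 to 5.51 on the log2 scale. These 5 genes have no description in the tables used here. The same direction in both libraries was part of the rule that named the 15 genes. All 15 passed when only cells with 3 or more *repo* UMIs were taken as IRP30-rich. So did all 84 higher genes of the main fit, among 675 called. These cells are part of the ones that named the genes, so this is no separate support. In the second library 1 cell held 80 of the 123 UMIs of LOC102654968.

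**Figure D4:**
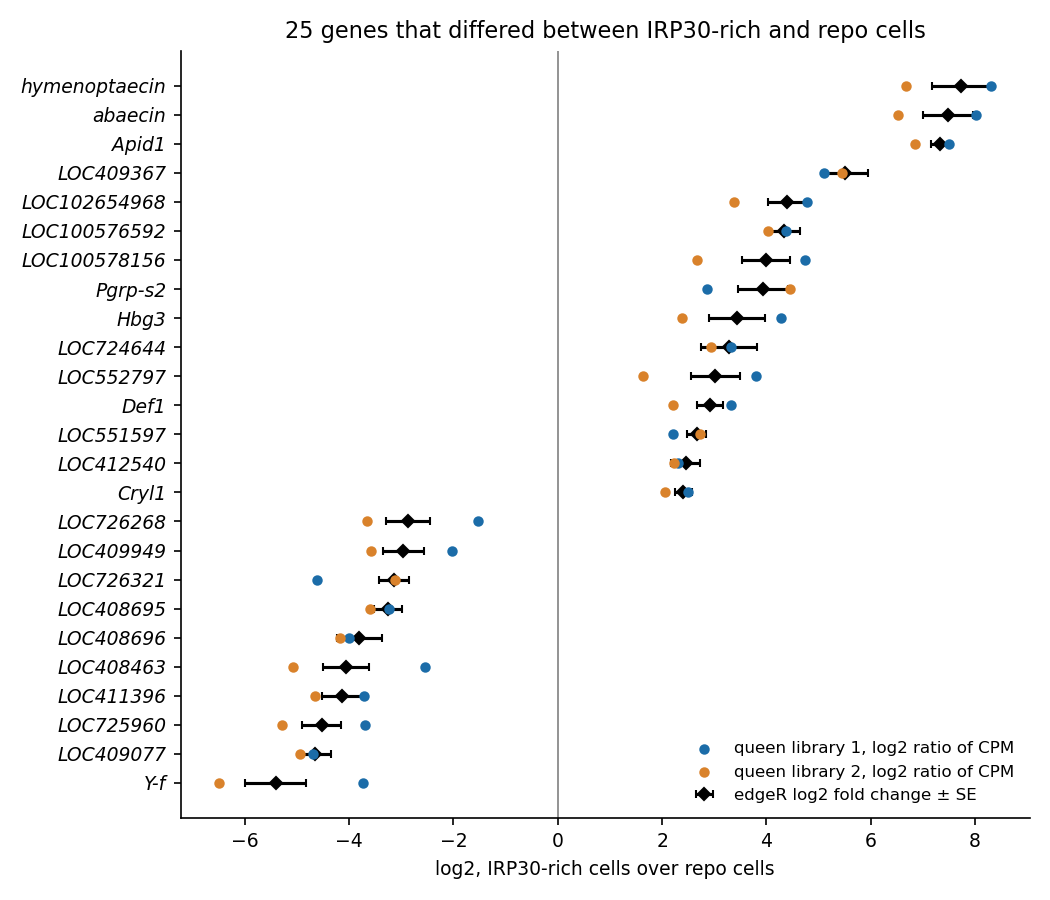
Log2 fold change of the 15 genes with the largest and the 10 with the smallest change between IRP30-rich and repo cells, among genes past the threshold; black diamonds and bars give edgeR's estimate ± SE, and points the log2 ratio of CPM in the first (blue) and second (orange) queen library. The genes were chosen for having the same direction in both libraries, so only the size of the changes is to be read from the plot, from -5.41 for *Y-f* to 7.74 for *hymenoptaecin*.

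Several genes of repo cells were nearly missing from the IRP30-rich cells. LOC409077, annotated as aminopeptidase N, stood at 50.2 and 62.1 CPM against 1290 and 1918 CPM in repo cells (log2 fold change -4.65 ± 0.30 SE, adjusted p = 5.55e-05). Worker cells with 3 or more *repo* UMIs that were very rich in LOC724644, given below, were also low in LOC409077, at 72.2 to 142 CPM. LOC725960, annotated as a neurofilament heavy polypeptide, stood at 69.3 and 40.7 CPM against 901 and 1597 CPM (-4.53 ± 0.37, adjusted p = 0.00018). *Y-f*, of the yellow family that acts on melanin precursors in *Drosophila*, stood at 9.55 and 2.10 CPM against 126 and 189 CPM (-5.41 ± 0.59, adjusted p = 0.00113). The peptidase gene LOC411396 (neprilysin-4) and the matrix proteoglycan gene LOC409949 (agrin) had log2 fold changes of -4.13 and -2.96. The other 5, LOC408463, LOC408695, LOC408696, LOC726268 and LOC726321, are uncharacterised and lay between -4.06 and -2.87. Set against all other queen cells in place of repo cells, in a fit of the queen libraries alone, 3 of these 10 genes passed as lower. Over all genes, 987 of 10776 were lower in that fit. For the others of the 10, the low level was called relative to repo cells only.

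The markers of glial subtypes split. *Wrapper*, a cortex glia gene, stood at 0 and 3.78 CPM in the IRP30-rich cells against 56.9 and 125 CPM in repo cells (log2 fold change -4.81 ± 0.51 SE, adjusted p = 0.00107). *Tsf1*, used for ensheathing glia, stood at 1447 and 2663 CPM against 421 and 878 CPM (1.84 ± 0.24, adjusted p = 0.00298). In the first library 1 cell held 438 of the 606 UMIs, and without it the level was 423 CPM, against 421 CPM in repo cells. In the second the richest cell held 12.9%, and 2336 CPM remained without it. This call was lost when both groups were held to 3000 to 10000 UMIs (0.13, adjusted p = 0.904) and among cells with 50 or more *IRP30* UMIs (1.47, adjusted p = 0.11). *Idgf4*, the other ensheathing marker, and *Tret1*, of surface glia, had 1.13 and 1.37 and did not pass (adjusted p = 0.0186 and 0.0635). The other surface marker, *vkg*, stood at 0 and 4.61 CPM, below the 21.9 and 19.5 CPM of repo cells (adjusted p = 0.393). Neither *ebony*, *GlnS* nor *Eaat-1* of the astrocyte list passed (-1.34, -1.30 and -0.95).

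Markers of hemocytes and fat body, which also make these peptides, gave no call. Of 6 hemocyte genes none passed. With 1.88% of all genes called, lists this short are likely to hold none. Nothing is therefore read from this count, nor from those of the fat body and neuronal lists. *Hemolectin* (*hml*) stood at 35.8 and 20.6 CPM in the IRP30-rich cells and 35.9 and 20.8 CPM in repo cells. *PPO* and the collagen IV genes *vkg* and LOC408552 were at or under 7.17 CPM. The summed hemocyte list was higher in the IRP30-rich cells, at 1041 and 1200 CPM against 680 and 833 CPM. Ferritin (*Fer2LCH*), an iron storage gene, made up 970 and 1132 CPM of it, against 482 and 685 CPM in repo cells (1.02, adjusted p = 0.0331). Of the 5 fat body genes tested none passed, and their sum was 38.2 and 150 CPM against 141 and 154 CPM. The neuronal list was lower in sum, at 1402 and 1890 CPM against 3015 and 2494 CPM, with none of its 7 genes past the threshold. The repo cells held 2471 and 1970 CPM of *elav*, against 3380 and 3271 CPM in all other cells. The part of these levels in the results above was not tested.

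The counts rested on both queen libraries. Without the first, 14 genes were higher and 38 lower, and 17 of the 25 named genes passed. Without the second, 15 were higher and 2 lower, and 11 of the 25 passed. In each of these fits the remaining library was assumed to vary like the other libraries. *Hymenoptaecin*, *abaecin*, *Apid1*, *Def1*, LOC100578156, LOC552797, LOC551597 and *Cryl1* passed without either library, whereas LOC724644, *Pgrp-s2*, *Hbg3*, LOC412540, LOC409367 and LOC100576592 passed in neither of these fits, nor did LOC408696, *Tsf1* and the lysozyme gene LOC409663. LOC102654968 passed in the fit without the second library only (4.94). LOC725960 and LOC726321 were lower in both of these fits, and the other 7 lower genes and *wrapper* in the fit without the first library only. With 50 or more *IRP30* UMIs as the limit, 597 genes were higher and 707 lower.

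Repo cells very rich in LOC724644 were present in every caste, and they were looked at since LOC724644 was high in the IRP30-rich cells. A limit of 10000 CPM, chosen after the values were seen, took 56 and 63 of the queen cells with 3 or more *repo* UMIs in the first and second library, 54 and 64 of those of nurses and 10 and 36 of those of foragers. Between 6 and 53 cells per library lay at 8000 to 12000 CPM, so the limit marks a range and not a type. *Tret1* was alike in these cells, between 6350 and 7489 CPM in workers and at 7632 and 5888 CPM in queens. LOC409077 stood between 72.2 and 142 CPM in those of workers, against 873 to 1626 CPM in all worker repo cells. In those of queens it stood at 71.0 and 37.6 CPM. *Elav* stood between 267 and 782 CPM in these worker cells and at 637 and 355 CPM in these queen cells. *IRP30* was not alike: no such cell of the 4 worker libraries held a single UMI of it, against 6553 and 35523 CPM in queens, where 25 of 56 and 59 of 63 of these cells were IRP30-rich.

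*Hymenoptaecin* stood between 8.96 and 20.3 CPM in these worker cells and at 4698 and 10340 CPM in the queen cells. *Def1* stood between 15.7 and 40.6 CPM, against 1447 and 1787 CPM. LOC100578156 stood between 11.1 and 60.5 CPM, against 1292 and 1001 CPM, and *Tsf1* between 11.1 and 81.3 CPM, against 894 and 4804 CPM. IRP30-rich cells made up 25 of 56 and 59 of 63 of these queen cells. Genes named as high in IRP30-rich cells are therefore raised here in part by that choice. How many of all genes separate queens from workers in these cells was not counted. *Pgrp-s2* overlapped, with 318 to 904 CPM in workers and 178 and 1816 CPM in queens, and so did LOC412540, with 467 to 1380 CPM and 464 and 846 CPM. No test was made, since the limit was set on these cells.

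All cells with 3 or more *repo* UMIs, IRP30-rich ones included, were then compared between queens and workers, with each library as 1 sample. Of 9498 genes, edgeR called 58 higher in queens (0.611%) and 25 lower (0.263%), or 0.874% in both directions. With library totals in place of TMM scaling the split was 59 and 68, and the median of all genes moved to -0.13. Of the 15 genes that rose in IRP30-rich cells 7 were among the higher, and of the 10 that fell 1 was among the lower. These queen sums include the IRP30-rich cells by which the genes were named, and without those cells 6 of the 15 were higher and 0 of the 10 lower. *Def1* stood at 283 and 704 CPM in queens, between 7.29 and 18.8 CPM in nurses and at 4.13 and 4.32 CPM in foragers (log2 fold change 6.18, adjusted p = 0.00259). *Hymenoptaecin* stood at 558 and 3406 CPM in queens and between 1.03 and 4.69 CPM in workers (9.54, adjusted p = 0.00259). *Abaecin* and *Apid1* were at or under 0.44 CPM in all 4 worker libraries.

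Without the IRP30-rich cells the peptides still differed, with log2 fold changes of 4.78 for *Def1*, 3.81 for *hymenoptaecin*, 7.03 for *abaecin* and 5.19 for *Apid1* (adjusted p between 7.87e-05 and 0.00308), and 253 genes were higher and 138 lower. The other queen cells held 21.2 and 49.6 CPM of *hymenoptaecin*, near the 25 and 55.2 CPM of repo cells, and 29.4 and 23.5 CPM of *Def1*, below the 176 and 221 CPM of repo cells. The fit without the IRP30-rich cells was not repeated with a library left out. The fit that included them, with 58 genes higher and 25 lower, depended on the number of worker libraries. Without the first or the second forager library 4 and 2 genes were higher and 4 and 2 lower. Without the first or the second nurse library edgeR called 0 genes higher, with 1231 and 1284 at an unadjusted p under 0.05, and 1 and 0 lower, while DESeq2 on all 6 libraries called 391 and 270. None of the 4 peptides passed in any fit without 1 worker library (adjusted p between 0.0134 and 0.0596). Without the first or the second queen library 234 and 322 were higher and 115 and 148 lower.

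Bulk brains gave a measurement of the same genes that the rule did not use. In bulk RNA, fewer cells of a type and less RNA per cell cannot be told apart. *IRP30* reached 18219 and 13642 CPM in queens, 60.5 and 19.97 CPM in nurses and 3354 and 2007 CPM in foragers, so that the 3 castes did not overlap (queens against workers, log2 fold change 5.40 ± 0.52 SE, adjusted p = 0.000447). *Apid1* stood at 4652 and 2479 CPM in queens, 8.43 and 16.2 CPM in nurses and 549 and 654 CPM in foragers (5.22, adjusted p = 5.46e-05). *Abaecin* stood at 1828 and 1013 CPM, 17.8 and 12.3 CPM, and 129 and 174 CPM in the same order (4.70, adjusted p = 0.000113). All 3 calls held when any 1 of the 6 libraries was left out.

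*Hymenoptaecin* was less clear in bulk. It stood at 3450 and 602 CPM in queens, 5.14 and 26.4 CPM in nurses and 1179 and 1106 CPM in foragers, so queens and foragers overlapped. The difference between queens and the mean of both worker groups passed (3.80, adjusted p = 0.00702), but it did not without the first queen library (2.05, adjusted p = 0.0379), the first nurse library (3.46, adjusted p = 0.0125), or the first or second forager library (3.76 and 3.83, adjusted p = 0.0297 and 0.0287). *Def1* stood at 6568 and 7018 CPM in queens and between 1020 and 3028 CPM in workers, without overlap, and did not pass (1.37, adjusted p = 0.0593). Over all genes, edgeR called 683 of 9932 higher in queens (6.88%) and 281 lower (2.83%), or 9.71% in both directions, and 409 and 63 without the second queen library.

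Of the 15 genes that rose in IRP30-rich cells, 7 were higher in queen bulk brains, among them *Pgrp-s2* (1.63) and *Cryl1* (2.71), and *Hbg3* was lower (-2.93). *Pgrp-s2* and *Cryl1* passed whichever library was left out, and *Hbg3* did not pass without either queen library (-2.69 and -3.24, adjusted p = 0.0133 and 0.0122). *Hbg3* stood at 648 and 947 CPM in queens, 1144 and 2431 CPM in nurses and 16170 and 17688 CPM in foragers, and *Mrjp1* to *Mrjp5* were also lower in queens. Of the 10 genes that fell, 4 were lower in queen bulk brains and 0 were higher at this threshold. LOC724644 stood at 2061 and 985 CPM in queens and between 911 and 2395 CPM in workers (-0.25, adjusted p = 0.564).

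**Figure D5:**
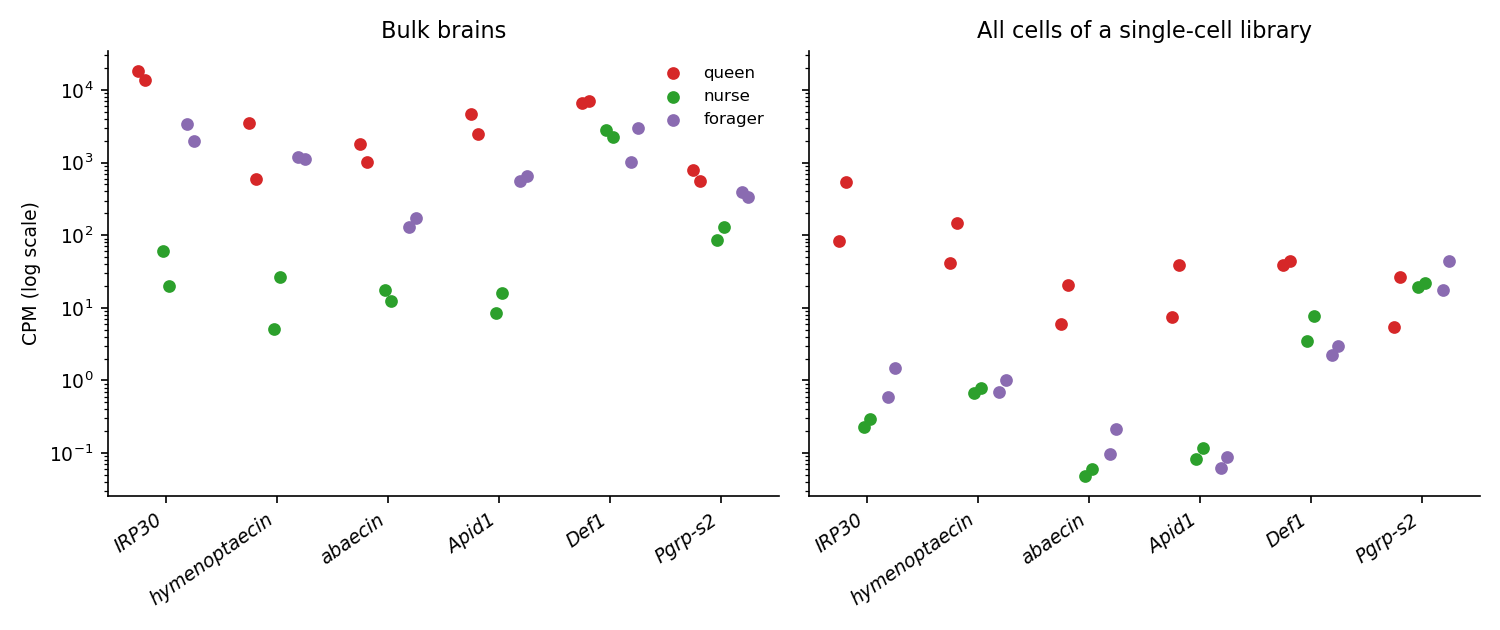
Level (CPM, log scale) of *IRP30* and 5 immune genes in bulk brains (left) and in the summed cells of each single-cell library (right), 1 point per library, with queens in red, nurses in green and foragers in purple. Foragers lie above nurses in bulk for *IRP30*, *hymenoptaecin*, *abaecin*, *Apid1* and *Pgrp-s2*. In single cells they lie above nurses by less for *IRP30* and *abaecin*. For *hymenoptaecin*, *Apid1* and *Pgrp-s2* they overlap with nurses there.

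The gap between foragers and nurses was of another size in bulk than in single cells. In summed single cells *IRP30* stood at 82.9 and 541 CPM in queens, 0.23 and 0.29 CPM in nurses and 0.59 and 1.501 CPM in foragers. *Hymenoptaecin* stood at 42.0 and 145 CPM in queens and between 0.68 and 1.03 CPM in all 4 worker libraries. The 2 kinds of library came from different brains, and what part the bees, the dissociation and the 2 protocols have in this was not tested.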

How the data were processed

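Per the labels, reads of the single-cell libraries were counted with Cell Ranger 3.1.0 against Amel_HAv3.1, and the authors deposited raw UMI counts of 12292 features per barcode, not normalized. For bulk brains, the authors trimmed reads with Trimmomatic 0.39, aligned them with STAR and deposited RSEM expected counts, rounded here to integers before testing. Kept cells held 133937595 to 159610288 UMIs per single-cell library, with medians of 4718 to 5971 UMIs per cell, and bulk libraries held 13135057 to 15177035 counts.

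Sums of UMIs for IRP30-rich, repo and all other cells of each library (14 sums) were fitted with edgeR 4.0.16 in R 4.3.3 (TMM, filterByExpr, quasi-likelihood test, two-sided), with the library as a block, and queen IRP30-rich cells were set against queen repo cells. *IRP30* and *repo* chose the cells and were left out of that test. Each SE is the size of the log2 fold change divided by the square root of the F statistic, as the edgeR test reports none. Castes were compared in 1 fit of 6 libraries. An adjusted p under 0.01 and a log2 fold change over 0.5 (single cells) or 1 (bulk), in size, were required, as in the study's methods. The text names the genes of the fixed lists, and the 15 highest and 10 lowest log2 fold changes past the threshold that reached 100 CPM in the higher group and went the same way in both queen libraries. DESeq2 1.42.0 was an alternative. CPM values are not divided by gene length and are compared within a gene or a summed list. Clusters came from scanpy 1.11.5 and leidenalg 0.10.2 (resolution 0.5), with a marker counted as enriched at a log2 ratio over 0.5. Doublets were kept. Fits were tested on simulated data.

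The cells, gene lists and tests were chosen with earlier results of these data known. List terms were matched by RefSeq symbols and the study's marker tables, since the reference table holds no descriptions, so lists are shorter than their terms. The study called changed genes with cells as replicates, which was not done here.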

Additional observations from a re-analysis of the deposited data

How the results depend on the processing

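Depth, and 2 libraries per caste, limit every value here. The number of IRP30-rich cells was 1050 with 5 or more *IRP30* UMIs, 1974 with 10 per 10000 UMIs, 137 with 50 or more, 577 with no mitochondrial limit, and 34 to 217 from 1 library.

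Against repo cells, 84 genes were higher and 105 lower. Higher and lower calls numbered 370 and 434 with 20 or more UMIs, 516 and 363 with DESeq2, 1407 and 987 against all other queen cells, 597 and 707 with 50 or more UMIs, 205 and 204 with no mitochondrial limit, and 675 and 798 for cells with 3 or more *repo* UMIs. Higher calls alone moved to 11 with 5 or more UMIs, 51 with 10 per 10000 UMIs, 155 at 3000 to 10000 UMIs, 32 with repo cells of 5 or more *repo* UMIs and 255 with the methods' upper UMI limit, and lower calls alone to 164 without TMM. In the queen libraries alone, with the library number as a replicate block, 397 were higher and 283 lower. The fit against all other queen cells also used the queen libraries alone, so its model changed along with the cells compared. Without 1 queen library, 14 to 15 were higher and 2 to 38 lower, and 11 to 17 of the 25 named genes passed. The settings with 50 or more UMIs, no mitochondrial limit and no top cells were chosen after seeing the data.

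For repo cells of queens against workers (58 higher, 25 lower), the counts were 391 and 270 with DESeq2, 122 and 70 with no filter, 119 and 51 with a replicate block, 88 and 61 with 5 or more *repo* UMIs, and 253 and 138 without IRP30-rich cells. Lower calls were 68 without TMM. Leaving out 1 library gave 0 to 322 higher and 0 to 148 lower; DESeq2 was run on all 6 only. In bulk, 1083 genes were higher without TMM, and leaving out 1 library gave 409 to 619 higher and 63 to 264 lower. Same-numbered libraries of different castes did not deviate together in every pair (correlations 0.0968 to 0.313 in repo cells and -0.152 to 0.0759 in bulk), so the numbers were not taken as pairs across castes. The block changed the bulk counts to 581 and 219.

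The mean share of IRP30-rich cells with any of 4 peptides was 79.9% thinned and 93.7% unthinned, and 71.5 to 88.2% from 1 library. Among the named and listed genes, the direction turned for 5 that were called in the main fit, the alternative fit or both. Turns of genes called in neither were not counted. Against all other queen cells, LOC408695 was at 0.46, *ebony* at 1.76, *GlnS* at 1.36 and *Vmat* at 0.90, and with 10 per 10000 UMIs *Tsf1* was at -0.06. The causes were not tested.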

Other observations

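*Vg*, the gene of the yolk precursor vitellogenin, was rare in the IRP30-rich cells. It had 11 UMIs in 9 of the 34 IRP30-rich cells of the first queen library and 284 UMIs in 23 of the 217 of the second, and 260 of the 284 lay in 1 cell. That cell had 2437 UMIs in all, with 106 of *IRP30*, 27 of the lipid carrier gene *apolipophorins*, 10 of the storage protein gene *Hex70a*, 9 of *abaecin* and no *repo* or *hymenoptaecin*. This cell was chosen after its values were seen. In sums, *Vg* stood at 26.3 and 119 CPM in IRP30-rich cells, 40.7 and 13.1 CPM in repo cells and 62.1 and 9.52 CPM in all other queen cells.

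*LOC100577073*, annotated as pigment-dispersing hormone peptides, was among the leading genes of group 0, with 1244 CPM against 72.8 CPM in the other IRP30-rich cells. The leading genes of group 2 included LOC100577332, annotated as GATA-binding factor C, at 182 against 8.16 CPM, and the histamine-gated chloride channel gene *Hiscl1*, at 247 against 17.2 CPM. Those of group 3 included LOC410947, annotated as tyrosine decarboxylase, at 363 against 28.5 CPM, and the dopamine receptor gene *Dop3*, at 117 against 8.08 CPM. Leading genes define a group and are given as values only.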
